A study of Oryza sativa with 6 samples.

Results

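Transcripts of 2 rice gene families that carry the auxin response were followed in the nucellar projection of the young seed: the auxin response factors (ARF) and the Aux/IAA repressors. The families were taken as a list of 54 locus IDs, 25 ARF and 29 Aux/IAA, and a locus was represented by the array probe whose name begins with its ID, the brightest over all arrays where there were several. The array carried probes for 52 of them, 24 ARF and 28 Aux/IAA, with 97 probes in all. The ARF locus Os07g0183600 and the Aux/IAA locus Os11g0221200 are not analysed here. Of the 52 loci, 47 had a probe well above background on both arrays of at least 1 group and entered the tests, 23 ARF and 24 Aux/IAA, among 22283 genes and microRNA probes tested. The probe names carry locus IDs and no gene names, so the members are given by ID and by the family of the supplied list.

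ARF proteins are transcription factors that bind auxin response elements in the promoters of auxin-regulated genes, where some activate and others repress transcription. Aux/IAA proteins bind ARFs and hold their targets off; when auxin brings an Aux/IAA protein together with its receptor, a TIR1/AFB F-box protein, the repressor is degraded and the ARFs are released. Many Aux/IAA genes are themselves induced by auxin, which makes the family both a brake on the response and one of its transcriptional readouts. In cereal grains, auxin takes part in early seed development, and the nucellar projection is the maternal tissue through which nutrients pass from the vascular bundle to the filial tissue.

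The series title ties the MADS-box transcription factor OsMADS29 to the breakdown of the nucellus and nucellar projection. Cells of that tissue were cut from seeds at 3 days after flowering by laser capture microdissection, in which chosen cells are isolated from a fixed section with a laser, and their RNA was amplified in 2 rounds before hybridisation. The groups were wild type of the cultivar ZH11 and the lines A-OsMADS29 line 2 and A-OsMADS29 line 14 in the same ZH11 background, each on 2 one-colour arrays. The labels call both lines OsMADS29 mutants, leave the prefix unexplained, and give neither the altered part of the gene nor a promoter. All plants were kept in pots in a phytotron with 12 h of light at 26 °C and 12 h of dark at 18 °C. The labels name independent biological samples without saying how many plants gave each, so the p-values measure the spread between these samples.

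Between 72.8% and 79.8% of all probes were well above background on an array, and no spot was saturated. The replicate arrays correlated across genes, which are no independent replicates, with a Pearson's r of 0.916 for wild type, 0.945 for line 2 and 0.958 for line 14. Wild type and line 2 lay on 1 slide and line 14 alone on another, so line 14 and its slide cannot be told apart. The probe for the OsMADS29 locus, whose ID comes from general knowledge, differed between the lines and wild type by -0.43 on the log2 scale (limma adjusted p = 0.876), and the labels do not settle whether it should. All 6 arrays detected it, as they did a starch synthase of maternal tissue, also assigned from general knowledge, at which the lines differed by 0.09 (limma adjusted p = 0.973).

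Most members of both families were transcribed at a detectable level in this tissue. The chosen probe was well above background on all 6 arrays at 21 of 24 ARF loci and 21 of 28 Aux/IAA loci. Over the 29690 loci on the array that share was 65.2%. The ARF locus Os02g0628600 and the Aux/IAA locus Os01g0286900 were well above background on no array, a state shared by 15.7% of all loci. The other Aux/IAA loci left out of the tests were Os02g0805100, well above background on 3 arrays, and Os05g0186900 and Os08g0109400, on 2 arrays each. For those 2 loci the arrays were wild-type replicate 2 and line 2 replicate 2.

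Setting both lines against wild type asks which transcripts differ when OsMADS29 is altered. In neither family did a member pass the test: 0 of 23 ARF loci and 0 of 24 Aux/IAA loci were called in limma at an adjusted p under 0.05, where 0.144% of all genes tested were called. Measured differences leaned to the lower side in both families. The difference, lines minus wild type on the log2 scale, was negative at 17 of 23 ARF loci with a median of -0.14, and at 19 of 24 Aux/IAA loci with a median of -0.36, while the median over all genes tested was 0.00. At an unadjusted limma p under 0.05 stood 1 ARF locus, lower in the lines, and 4 Aux/IAA loci, 2 higher and 2 lower, where 7.88% of all genes tested did, 3.88% higher and 4% lower. Of the 47 members, 3 passed the filter on dim signal through 1 group only, the ARF locus Os04g0690600 and the Aux/IAA locus Os06g0355300 through line 2 and the Aux/IAA locus Os06g0166500 through wild type. The last is 1 of the 2 counted lower. The ARF locus Os04g0664400 and the Aux/IAA locus Os02g0723400 passed through line 2 and line 14 but not wild type. Of these, Os02g0723400 is 1 of the 2 counted higher. A direction fixed or favoured by the filter is no sign of a change. The 95% confidence interval of a single locus reached 0.84 to either side at the median ARF locus and 1.12 at the median Aux/IAA locus.

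The size of the family medians depended on single arrays. Without wild-type replicate 1 the ARF median was -0.41, without wild-type replicate 2 it was -0.074, without line 2 replicate 2 it was -0.25, and without line 14 replicate 2 it was -0.28. Without line 14 replicate 1 the Aux/IAA median was -0.14, without line 14 replicate 2 it was -0.66, and without wild-type replicate 1 it was -0.19. When all kept probes of a locus were averaged the ARF median was -0.03, and over the 21 ARF loci well above background on all arrays it was -0.21. These are the lines minus wild type on the log2 scale.

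**Figure D1:**
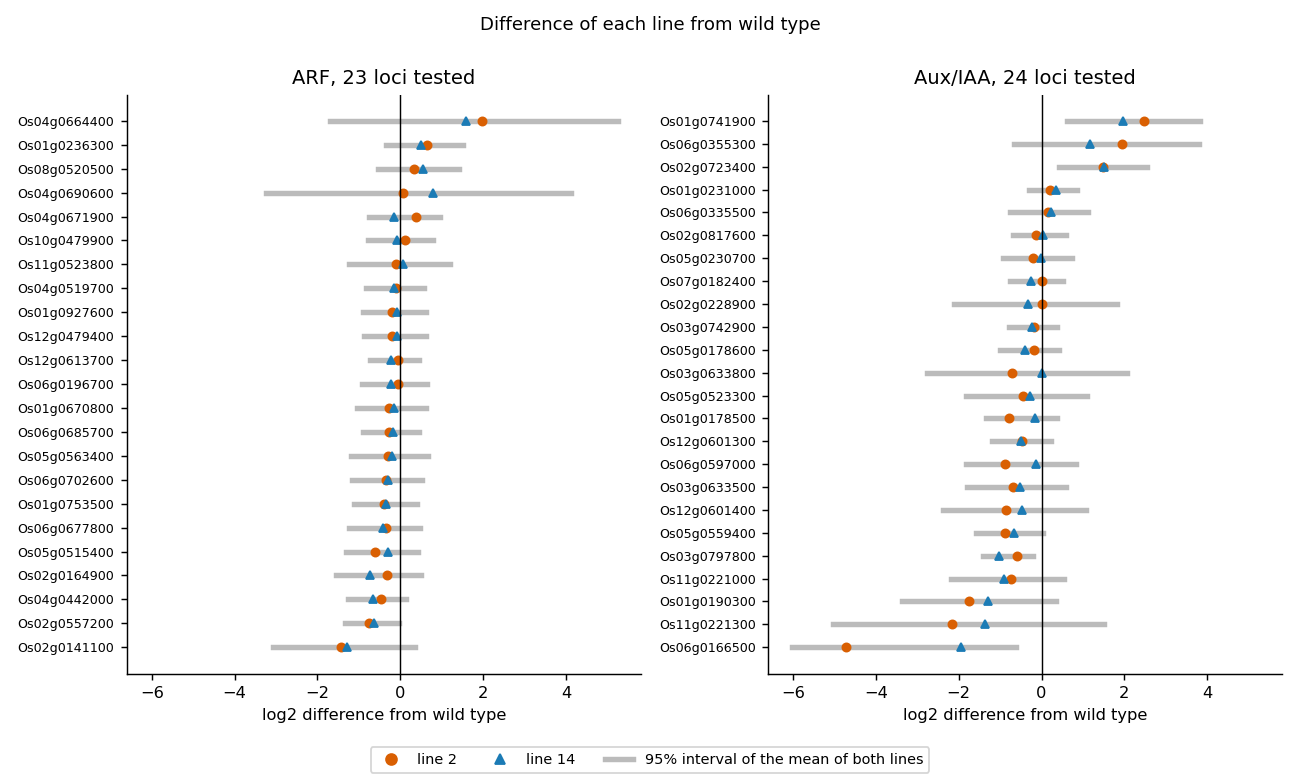
Log2 difference from wild type (horizontal axis) of each tested ARF locus (left, 23 loci) and Aux/IAA locus (right, 24 loci), with circles for line 2, triangles for line 14 and grey bars for the 95% confidence interval of the mean of both lines from limma. Most points lie to the left of 0, and the widest intervals belong to loci that were dim or uneven on some arrays.

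Each line was also set against the same wild-type arrays, so the results for line 2 and line 14 share their controls. The median ARF difference was -0.20 in line 2 and -0.18 in line 14. The median Aux/IAA difference was -0.47 in line 2 and -0.26 in line 14, against medians over all genes tested of 0.01 in both. No member of either family was called in line 2, where 0.0224% of all genes tested were, or in line 14, where 0.0404% were. At an unadjusted limma p under 0.05 there were 1 ARF and 3 Aux/IAA members in line 2, beside 6.4% of all genes tested, and 0 ARF and 3 Aux/IAA members in line 14, beside 7.12%. These counts include Os06g0166500 in line 2 and Os02g0723400 in both lines, whose directions the filter favoured. The line 14 Aux/IAA median was 0.20 without line 14 replicate 1 and -0.61 without line 14 replicate 2, so its direction turned with 1 array. The line 14 ARF median was -0.0046 without line 14 replicate 1, -0.31 without line 14 replicate 2 and -0.37 without wild-type replicate 1. The line 2 ARF median was -0.36 without wild-type replicate 1, -0.069 without wild-type replicate 2 and -0.35 without line 2 replicate 2.

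A locus was counted as separated where all arrays of one group lay on one side of all arrays of the other. Among ARF loci, 2 of 23 (8.70%) had all 4 line arrays below both wild-type arrays and 0 had them above, where 8.84% of all genes tested were separated downwards and 7.66% upwards. The ARF share is thus close to that of the array as a whole. Among Aux/IAA loci, 5 of 24 (20.8%) were separated downwards and 3 (12.5%) upwards. The upward count includes Os02g0723400, which did not pass the filter on dim signal through wild type. Line 2 alone lay below both wild-type arrays at 7 ARF loci (30.4%) and 12 Aux/IAA loci (50%), where 17.4% of all genes tested did, and above them at 1 and 3 loci, where 15.2% did. Line 14 alone lay below at 4 ARF loci (17.4%) and 7 Aux/IAA loci (29.2%), where 18.1% did, and above at 0 and 3 loci, where 17% did. Counted below in line 2 is Os06g0166500, which passed the filter through wild type alone. Counted above in each line is Os02g0723400, which passed through the lines and not wild type. None of these shares was tested.

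Among the ARF loci, transcription factors of the response, Os02g0557200 had the lowest p. On a log2 scale set to 0 at the 75th percentile of an array, the scale of all levels here, its signal was -0.11 and -0.38 in wild type, -0.99 and -1.01 in line 2, and -1.04 and -0.70 in line 14. All 4 line arrays were below both wild-type arrays. The lines minus wild type came to -0.69 (SE 0.26, 95% confidence interval -1.34 to -0.04, limma adjusted p = 0.610), a level 1.61-fold lower. The other separated ARF locus was Os04g0442000, with 0.60 and 0.31 in wild type, -0.07 and 0.04 in line 2, and -0.46 and 0.03 in line 14. Its difference was -0.57 (SE 0.28, limma adjusted p = 0.723). For each of these loci the two-sided exact permutation p over the 6 arrays was 0.0667, and the 15 possible splits allow none smaller.

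The lowest measured ARF difference belonged to Os02g0141100, at -1.37 (SE 0.68, 95% confidence interval -3.08 to 0.35, limma adjusted p = 0.729). Wild type read -2.32 and -3.18, line 2 read -3.88 and -4.50, and line 14 read -5.12 and -2.95. Line 2 lay below wild type, whereas line 14 replicate 2 fell between the wild-type arrays, so the groups overlapped. The difference lay between -1.91 and -0.82 over the alternatives run. Os01g0236300 leaned the other way, with -0.89 and -0.02 in wild type, -0.02 and 0.42 in line 2, and -0.18 and 0.28 in line 14. Only wild-type replicate 1 stood below all other arrays at that locus, and the difference was 0.58 (SE 0.37, limma adjusted p = 0.806). It lay between 0.15 and 1.02 over the alternatives, and the other probes of the locus gave 0.03 and 0.16.

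At Os05g0515400 the arrays read 0.19 and -0.07 in wild type, -0.36 and -0.72 in line 2, and -0.66 and 0.21 in line 14. Line 2 lay below wild type, line 14 on both sides of it, and the difference of the lines was -0.45 (SE 0.35, limma adjusted p = 0.850). At Os02g0164900 the values were -1.06 and -0.82 in wild type, -1.88 and -0.65 in line 2, and -1.55 and -1.77 in line 14. Here it was line 14 that lay below both wild-type arrays, while line 2 held the highest and the lowest value. The difference was -0.52 (SE 0.41, limma adjusted p = 0.850), and it was 0.24 when the kept probes of the locus were averaged. The remaining 12 tested ARF loci differed by -0.38 to 0.44, 10 of them on the lower side, with a lowest limma adjusted p of 0.857.

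**Figure D2:**
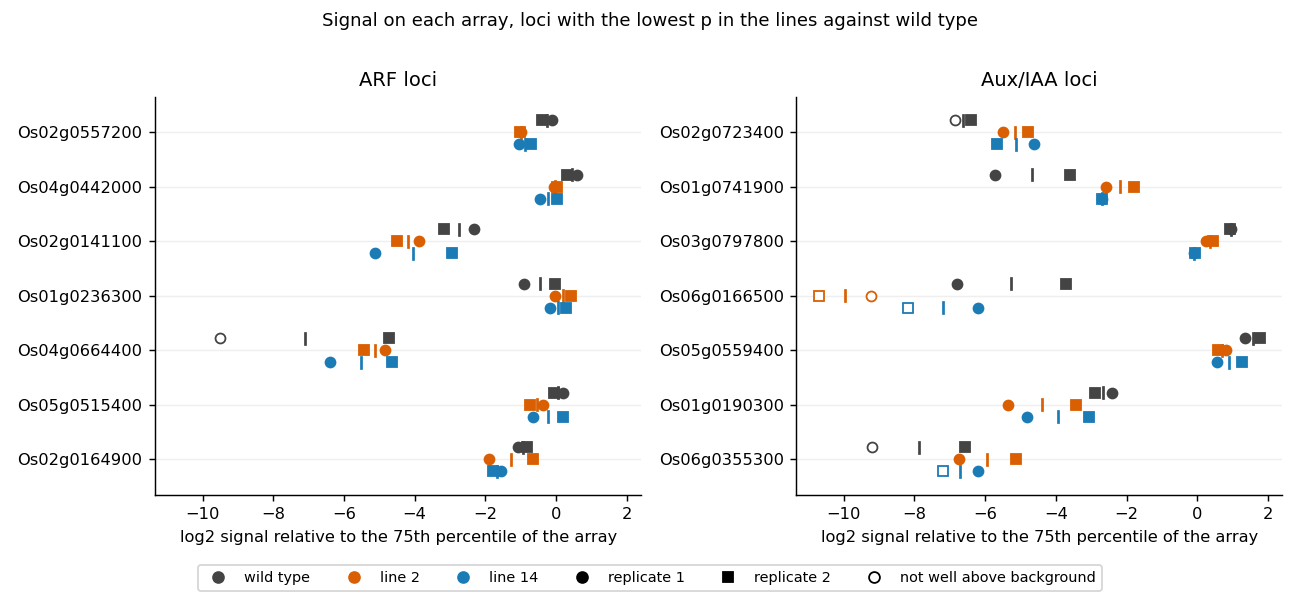
Log2 signal relative to the 75th percentile of the array (horizontal axis) for the 7 loci with the lowest p in each family, ARF on the left and Aux/IAA on the right. Circles are replicate 1 and squares replicate 2 of wild type (grey), line 2 (orange) and line 14 (blue), open symbols were not well above background, and ticks are group means. Os03g0797800 shows tight pairs in a stepwise order, whereas Os04g0664400 and Os06g0166500 spread over several log2 units.

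Among the Aux/IAA loci, the repressors, Os03g0797800 combined a low p with close replicates. Its signal was 0.96 and 0.92 in wild type, 0.25 and 0.46 in line 2, and -0.10 and -0.06 in line 14. The groups did not overlap, with wild type highest, line 2 between and line 14 lowest. The difference of the lines from wild type was -0.81 (SE 0.24, 95% confidence interval -1.41 to -0.21, limma adjusted p = 0.456), by -0.59 in line 2 and -1.03 in line 14. Over all the processing alternatives run, each array left out included, the difference of the lines lay between -0.86 and -0.71. Line 14 minus line 2 was -0.44 (SE 0.27, 95% confidence interval -1.13 to 0.25), which includes 0.

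Os05g0559400 was also separated downwards, and it is the member with the most probes. Its brightest probe read 1.36 and 1.79 in wild type, 0.81 and 0.59 in line 2, and 0.55 and 1.27 in line 14. All line arrays were below both wild-type arrays, though line 14 replicate 2 came close to wild-type replicate 1. The difference was -0.77 (SE 0.32, 95% confidence interval -1.59 to 0.05, limma adjusted p = 0.663), and the 5 probes of the locus gave between -0.73 and -0.82. These probes share the same samples and are not replicates.

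Os01g0190300 read -2.42 and -2.89 in wild type, -5.36 and -3.44 in line 2, and -4.81 and -3.06 in line 14. All line arrays were lower than wild type, by a small margin for replicate 2 of either line and by a wider one for replicate 1. The difference was -1.51 (SE 0.74, 95% confidence interval -3.37 to 0.34, limma adjusted p = 0.725). Os12g0601300, named here because its arrays did not overlap, read 2.86 and 2.36 in wild type, 1.97 and 2.28 in line 2, and 2.18 and 2.05 in line 14, a difference of -0.49 (limma adjusted p = 0.779). The fifth locus separated downwards, Os03g0742900, is described with the steadiest members.

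The lowest fitted difference in either family was at Os06g0166500, a dim probe. Wild type read -6.81 and -3.70, line 2 read -9.24 and -10.71, and line 14 read -6.21 and -8.19. The signal was well above background in both wild-type samples, in neither line 2 sample and in line 14 on replicate 1 only. The locus passed the filter through wild type alone, so its lower values in the lines are favoured by that choice. Both line 2 arrays read below both wild-type arrays (limma adjusted p = 0.480), but without a line 2 signal well above background no size is given. The fitted difference of the lines, -3.33 (limma adjusted p = 0.517), uses signals of 3 line arrays that were not well above background and is no measure of size. It was -1.50 with normexp and quantile scaling, -4.88 without wild-type replicate 1 and -1.78 without wild-type replicate 2.

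Other Aux/IAA loci were measured higher in the lines. Os01g0741900 read -5.71 and -3.61 in wild type, -2.58 and -1.80 in line 2, and -2.68 and -2.70 in line 14. Every line array was above both wild-type arrays, and the difference was 2.22 (SE 0.64, 95% confidence interval 0.62 to 3.83, limma adjusted p = 0.438), a level 4.66-fold higher. It was 1.17 without wild-type replicate 1 and 3.27 without wild-type replicate 2. Os02g0723400 read -6.86 and -6.41 in wild type, -5.51 and -4.79 in line 2, and -4.62 and -5.65 in line 14. It too was separated, with a difference of 1.49 (SE 0.42, 95% confidence interval 0.43 to 2.56, limma adjusted p = 0.429). No member had a lower adjusted p in this comparison. The locus passed the filter through line 2 and line 14 but not wild type. Its higher values in the lines are favoured by that choice. Wild-type replicate 1 was not well above background at this locus, and the difference was 0.71 with normexp and quantile scaling.

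Os06g0355300 was dim throughout and passed the filter through line 2 alone, where its mean was highest. Its values were -9.20 and -6.56 in wild type, -6.73 and -5.14 in line 2, and -6.21 and -7.19 in line 14. Only wild-type replicate 1 stood clearly apart, and the groups overlapped. Wild-type replicate 1 and line 14 replicate 2 were not well above background, and the fitted difference of 1.56 (limma adjusted p = 0.778) was 0.24 without wild-type replicate 1, 2.89 without wild-type replicate 2 and 0.64 with normexp and quantile scaling. The third locus separated upwards was Os01g0231000, by a small step. The 13 tested Aux/IAA loci outside the naming rule, Os12g0601300 among them, differed by -1.75 to 0.19, 12 of them on the lower side, with a lowest limma adjusted p of 0.779.

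Os03g0742900 and Os01g0231000 had the narrowest ranges of the tested Aux/IAA members with scaling to the 75th percentile. Os03g0742900 ranged over 0.29 log2 units, with 2.73 and 2.62 in wild type, 2.43 and 2.54 in line 2, and 2.45 in both line 14 arrays. It was nevertheless separated, all line arrays lying below wild type by a mean of 0.20 (difference -0.20, SE 0.23, limma adjusted p = 0.899). Os01g0231000 ranged over 0.40 log2 units, though with quantile scaling it was the narrower of the pair, at 0.36 against 0.39, with 2.81 and 2.88 in wild type, 3.06 and 3.03 in line 2, and 3.21 and 3.17 in line 14. The 3 groups did not overlap, in the order wild type, line 2, line 14, and the difference of the lines was 0.27 (SE 0.23, limma adjusted p = 0.861). The SE of such members is larger than their own spread because limma draws the variance of a gene towards that of all genes.

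Among ARF loci, Os12g0613700 ranged over 0.32 log2 units, and over 0.59 with normexp and quantile scaling, with 1.92 and 2.05 in wild type, 1.90 and 1.98 in line 2, and 1.74 and 1.77 in line 14. Line 14 lay below the other 4 arrays, and the difference of the lines was -0.14 (SE 0.23, limma adjusted p = 0.937). Os04g0519700 ranged over 0.60, with -1.68 and -1.71 in wild type, -1.75 and -1.85 in line 2, and -2.13 and -1.54 in line 14. Its whole range came from the line 14 arrays, and the difference was -0.12 (SE 0.28, limma adjusted p = 0.959).

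At the opposite end stood members whose wild-type arrays disagreed. The ARF locus Os04g0690600 read -8.92 on wild-type replicate 1 and -3.80 on wild-type replicate 2, with -5.90 and -6.68 in line 2 and -4.72 and -6.41 in line 14. The wild-type values lay on either side of all line arrays. Their gap of 5.12 log2 units was 2.11 with normexp and quantile scaling. The ARF locus Os04g0664400 read -9.50 and -4.72 in wild type, -4.85 and -5.42 in line 2, and -6.40 and -4.64 in line 14. Its difference of 1.78 (SE 1.38, limma adjusted p = 0.849) was -0.61 without wild-type replicate 1, so its direction was set by that array. Its wild-type gap of 4.78 was 2.04 with normexp and quantile scaling. At both loci wild-type replicate 1 was not well above background, so these gaps have no exact size. The Aux/IAA locus Os03g0633800 was uneven in the reverse sense, at -2.11 and -5.41 in wild type, with line 2 at -4.38 and -4.56 and line 14 at -4.37 and -3.15.

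When every member was set against its own mean over the 6 arrays, both families were high or low on the same arrays. The median deviation of the ARF loci was 0.03 and 0.24 in wild type, -0.14 and -0.01 in line 2, and -0.31 and 0.24 in line 14. That of the Aux/IAA loci was 0.19 and 0.19 in wild type, -0.19 and 0.00 in line 2, and -0.26 and 0.27 in line 14. All genes tested stayed between 0.00 and 0.05. Line 14 was split: on replicate 1, 1 of 23 ARF loci and 6 of 24 Aux/IAA loci lay above their own mean, and on replicate 2, 15 and 16 did. For ARF the group means were 0.13 ± 0.15 (SD, n = 2) in wild type, -0.08 ± 0.10 for line 2 and -0.04 ± 0.39 for line 14, and 0.19 ± 0.00, -0.09 ± 0.13 and 0.00 ± 0.37 for Aux/IAA. Line 14 thus spread over more than its distance from wild type.

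**Figure D3:**
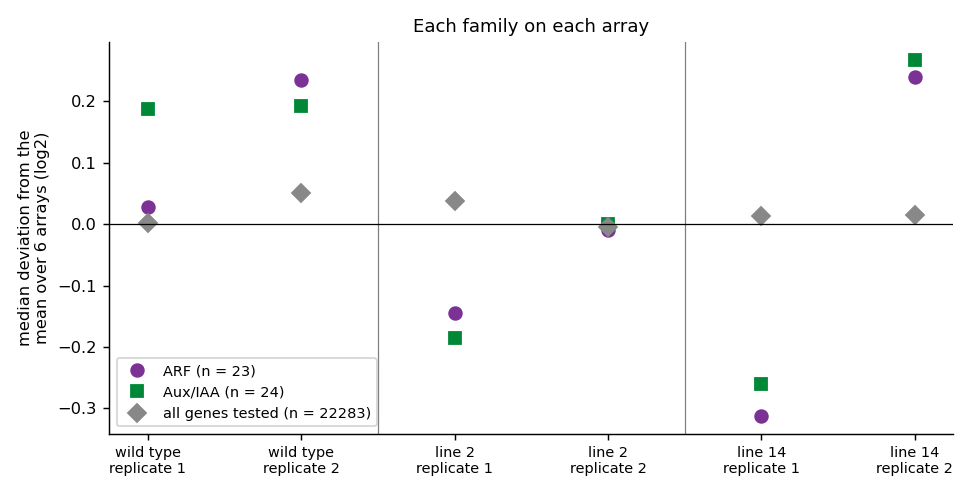
Median deviation of the loci from their own mean over 6 arrays, on the log2 scale (vertical axis), on each array (horizontal axis), for ARF (purple circles, 23 loci), Aux/IAA (green squares, 24 loci) and all 22283 genes tested (grey diamonds). Both families are lowest on line 14 replicate 1 and highest on line 14 replicate 2, while all genes stay near 0.

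The gap between the replicate arrays of a group showed the same split locus by locus. In line 14, replicate 2 was higher at 36 of the 47 tested members (76.6%), compared with 49.5% of all genes tested, and the median gap was 0.46. Replicates lay more than 2-fold apart at 14 members (29.8%) in line 14, 11 of them with replicate 2 higher, against 16.2% of all genes tested. In wild type this held for 8 members (17.0%), against 26.1% of all genes, and in line 2 for 5 (10.6%), against 15.9%. Of the 24 Aux/IAA loci, 10 (41.7%) were more than 2-fold apart in line 14. The members are not independent of each other, since each array lends its own deviation to all of them.

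**Figure D4:**
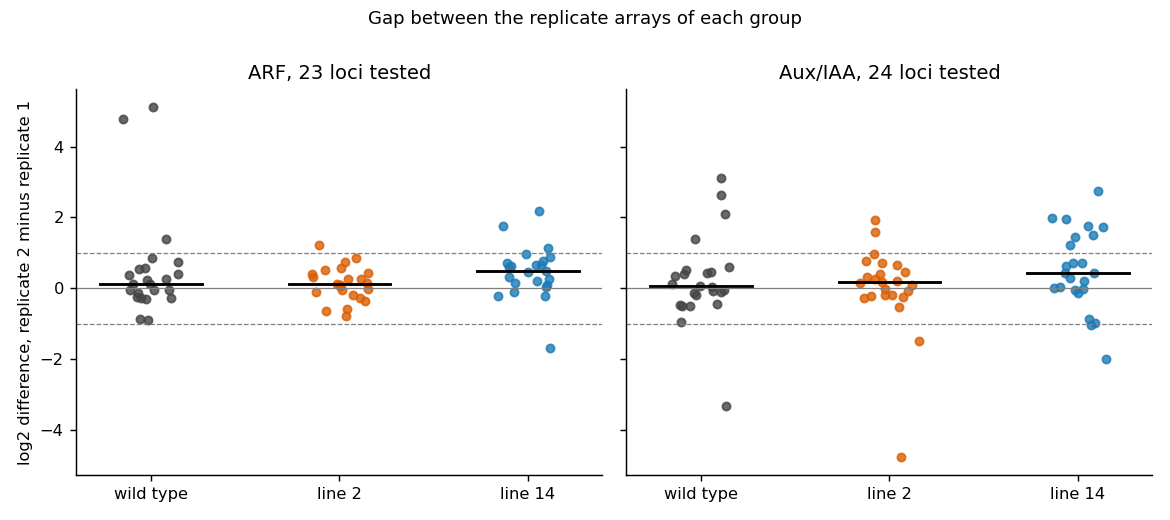
Replicate 2 minus replicate 1 on the log2 scale (vertical axis) for each tested locus in wild type, line 2 and line 14, ARF on the left and Aux/IAA on the right. Solid bars are medians and dashed lines mark a 2-fold gap, and the line 14 medians, 0.48 for ARF and 0.44 for Aux/IAA, lie above those of the other groups.

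The lines were also compared with each other, a contrast whose differences do not use the wild-type values. Its intervals and p-values do depend on the wild-type arrays, because the model shared the spread of all 6 arrays. The filter on dim signal used them too. No member was called, nor was any of the genes tested (0%), and 0 members reached an unadjusted limma p under 0.05, where 3.46% of all genes did. The median of line 14 minus line 2 was 0.06 for ARF and 0.16 for Aux/IAA. Line 14 lay wholly above line 2 at 1 ARF and 4 Aux/IAA loci, where 15.2% of all genes tested did. It lay wholly below at 1 and 3, where 16.3% did. Counted above is Os06g0166500, which passed the filter through wild type alone and was well above background on 0 line 2 arrays. Both medians changed sign with a single array: without line 14 replicate 2 they were -0.27 and -0.14, and without line 2 replicate 1 they were -0.079 and -0.052. Without line 14 replicate 1 they were 0.26 and 0.44, and without line 2 replicate 2 they were 0.12 and 0.093. With quantile scaling they were -0.01 and 0.02.

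The lowest p between the lines belonged to Os06g0166500, at which line 14 was well above background on 1 array and line 2 on none, so no size is given. Os01g0178500, an Aux/IAA locus, read -0.87 and -0.27 in wild type, -1.44 and -1.27 in line 2, and -1.09 and -0.38 in line 14. Line 2 lay below all other arrays, while line 14 overlapped wild type. Line 14 minus line 2 was 0.62 (95% confidence interval -0.37 to 1.61). Among ARF loci the lowest p belonged to Os04g0671900, with 1.57 and 1.83 in wild type, 1.64 and 2.51 in line 2, and 1.41 and 1.69 in line 14. Only line 2 replicate 2 stood apart, and line 14 minus line 2 was -0.53 (95% confidence interval -1.52 to 0.46). The corresponding values were -0.40 at Os02g0164900 (95% confidence interval -1.59 to 0.80) and 0.31 at Os05g0515400 (95% confidence interval -0.70 to 1.33).

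Several probes of a locus gave a second reading within the same samples. At the 14 ARF loci with more than 1 probe, 22 further probes were well above background on at least 4 arrays. Their difference between the lines and wild type had the sign of the brightest probe in 13 cases and the opposite sign in 9. At the 10 such Aux/IAA loci, 19 of 20 further probes had the same sign and 1 the opposite. The ARF locus Os02g0164900 was the most discordant, with -0.52, -0.51 and 1.74 at its 3 probes, the last of them dim and in the coding sequence. At Os04g0664400 the brightest probe gave 1.78 and another gave -0.21. At Os04g0671900 all 4 probes were positive, at 0.11 to 0.38, and all put line 14 below line 2, by -0.48 to -0.60.

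**Figure D5:**
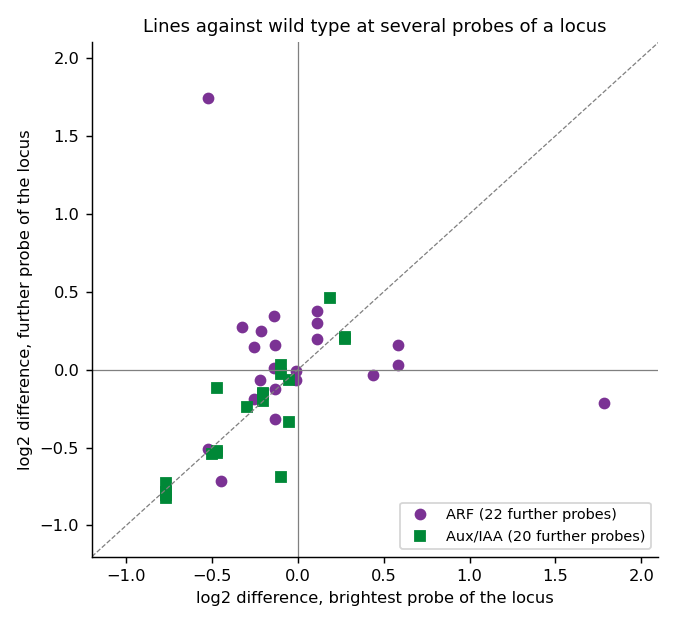
Log2 difference of the lines from wild type at a further probe of a locus (vertical axis) against that at its brightest probe (horizontal axis), for 22 ARF probes (purple circles) and 20 Aux/IAA probes (green squares), with the line of equality dashed. Aux/IAA points follow the diagonal with 1 on the other side of 0, whereas 9 ARF points lie in the quadrants of opposite sign.

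Neighbouring Aux/IAA locus IDs were looked at side by side, since close copies can share probe signal. This grouping is from the IDs alone and was not tested for shared sequence. Os12g0601300 and its neighbour Os12g0601400 differed from wild type by -0.49 and -0.66, Os11g0221000 and Os11g0221300 by -0.82 and -1.75, and Os03g0633500 and Os03g0633800 by -0.61 and -0.35, all on the log2 scale and none called. At Os11g0221300 a single array stood furthest apart: line 2 replicate 2 read -7.67, against -2.92 on line 2 replicate 1 and -3.10 and -3.18 in wild type. Line 14 read -4.07 and -4.92, below both wild-type arrays.

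Other parts of the auxin pathway were read from lists of locus IDs assigned from general knowledge, an assignment that the files do not carry. Of 5 IDs listed as GH3 amide synthetases, enzymes that conjugate auxin to amino acids and are induced by it, 4 were tested and 0 called. All 4 had every line array below both wild-type arrays, where 8.84% of all genes tested did. Their unadjusted limma p was 0.000477 to 0.0453 and their limma adjusted p 0.112 to 0.621. Of these, 3 were well above background on all arrays and differed by -2.03 to -2.16. The other, Os01g0785400, was well above background on 4 arrays and passed the filter through wild type alone. Its lower values in the lines are favoured by that choice, and its fitted difference of -3.02 is no measure of size. The listed ID that was not tested read -7.60 and -8.22 in wild type, -7.64 and -8.15 in line 2, and -5.75 and -7.01 in line 14, higher in line 14 and well above background on 2 arrays. The summed signal of the list on the log2 scale was -0.29 and -0.80 in wild type, -2.06 and -3.27 in line 2, and -2.80 and -2.19 in line 14. Among the ARF and Aux/IAA members, only Os06g0166500 and Os01g0741900 had fitted differences as far from 0 as those of the tested GH3 IDs. That of Os06g0166500 is no measure of size, and Os01g0741900, at 2.22, was higher in the lines.

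The other auxin lists gave no call. Both IDs listed as auxin receptors were tested, at -0.93 and -0.07. The first of them read -4.21 and -3.94 in wild type, -4.70 and -3.47 in line 2, and -4.65 and -7.19 in line 14. Line 14 replicate 2 was not well above background there, so the -0.93 is no measure of size. The 3 IDs listed as PIN transporters, which carry auxin out of cells, were at -1.2 to -0.07. The tested auxin synthesis ID of 2 listed was at -0.52, and the tested 1 of 2 further Aux/IAA IDs was at -0.10. Small RNAs act on ARF transcripts in plants: miR160 and miR167 direct their cleavage, and miR390 acts through trans-acting small RNAs that target other ARFs. The 6 mature miR160 probes were well above background on all arrays, with a median difference of -0.67, 5 of them negative, and 0 called. Those of miR160a to miR160e read close together on each array, at -3.75 to -3.40 on wild-type replicate 1. Whether they measure separate transcripts was not tested, so the count and the sum may hold 1 signal several times. The summed log2 signal of the 6 mature probes was -1.11 and -2.38 in wild type, -2.84 and -2.11 in line 2, and -2.60 and -1.74 in line 14. Wild-type replicate 1 alone was high, and wild-type replicate 2 lay among the line arrays. The 11 tested miR160 flanking probes differed by -1.28 to 1.40, with a median of -0.35. The 3' flank of miR160b, at 1.40 (limma adjusted p = 0.458), was the only one with every line array on one side of wild type. None of the miR167 probes, 10 mature and 20 flanking, and none of the miR390 probes, 1 mature and 2 flanking, passed the filter on dim signal.

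Markers of neighbouring tissues, also assigned by ID from general knowledge, were read beside these results. Of 5 endosperm IDs, 4 were tested, 3 higher in the lines by 1.44 to 2.32 and 1 lower, at -4.02, and 0 were called. The lower one, Os06g0133000, read -1.34 and -1.30 in wild type, -1.09 and -6.99 in line 2, and -6.87 and -6.40 in line 14. Its groups overlapped, and it was well above background on 5 arrays. All 4 had an unadjusted limma p under 0.05, where 7.88% of all genes tested did. Their unadjusted limma p ran from 0.00145 to 0.0490, the highest at Os06g0133000, with limma adjusted p of 0.177 to 0.630. The 3 higher ones had every line array above both wild-type arrays, where 7.66% of all genes tested did. The summed log2 signal of all 5 listed IDs was 0.26 and 0.01 in wild type, 1.49 and 0.60 in line 2, and 2.02 and 2.01 in line 14. On each array 3 to 5 of the 5 were well above background. The 3 IDs for green pericarp layers were higher by 0.50 to 0.62 with 0 called. Their part in the differences of the ARF and Aux/IAA loci was not tested. In captured cells, fewer cells of a type and less RNA per cell cannot be told apart.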

How the data were processed

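Per the file headers, the authors read Cy3 arrays (design 15241, Agilent) with Feature Extraction 10.7.3.1. Its deposited processed signal is a background-corrected intensity, unnormalized between arrays. The authors' deposited value table holds log2 values, median 10.4 in each column, by a method that no source used here names. Control spots and flagged outliers were dropped, the 75th percentile of each array was subtracted from its log2 intensity, and spots of one probe were averaged. A probe was kept if the deposited flags put 0.5 or more of its spots well above background on both arrays of 1 group, and the brightest kept probe stood for a locus.

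One limma model (limma 3.58.1, R 4.3.3) held all 6 arrays, with Benjamini-Hochberg adjustment over 22283 genes and a threshold of 0.05. Code was tested on simulated data. Figures used matplotlib 3.10.9 under Python 3.11.15. Members named were, per family, the 7 with the lowest p in the lines against wild type, the 3 with the lowest p between lines, the 2 with the largest wild-type gap and the 2 with the narrowest range; any called member would have been added. The members and lists were chosen with earlier results of these data known. The reference table of 39387 genes matched 0 member IDs, so no sequences or gene names are given. Alternatives covered background correction, scaling, filtering, probe choice, the replicate block, the arrays fitted, an intensity trend and each array left out. Because a mean spot signal is not in the files, normexp was run on the median one, unlike planned. The number of arrays limits the precision.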

Additional observations from a re-analysis of the deposited data

How the results depend on the processing

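Under every alternative run, 0 ARF and 0 Aux/IAA members were called in any contrast. The number of genes called over the whole array, 5 for line 2, 9 for line 14 and 0 between the lines, moved more. It was 24 for line 14 with normexp and quantile scaling together, 9, 30 and 1 with quantile scaling and with the authors' deposited table, and 9 for line 2 with an intensity trend. For both lines against wild type, where 32 genes were called, it was 4 without a filter on dim probes and 4 with probes well above background on all 6 arrays. These filters gave 2 and 0 for line 2, and 1 and 1 for line 14; with probes averaged line 14 gave 1, and with only the compared arrays line 2 and line 14 gave 0. Replicate numbers share only a number: same-numbered arrays correlated at 0.02 to 0.08 in their deviations. With replicate number as a block the calls were 1, 0 and 0 for both lines, line 2 and line 14, and no member call changed. Median scaling moved the median of all genes for line 14 to 0.12.

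With each array left out in turn, calls ranged from 0 to 106 for both lines (106 without wild-type replicate 2), 0 to 0 for line 2 and 0 to 1 for line 14. Family medians ranged as follows. Lines against wild type gave -0.41 to -0.074 for ARF and -0.66 to -0.14 for Aux/IAA. Line 2 gave -0.36 to -0.069 and -0.47 to -0.32, and line 14 gave -0.37 to -0.0046 and -0.61 to 0.20. Line 14 minus line 2 gave -0.27 to 0.26 and -0.14 to 0.44. Named members that changed direction were Os02g0164900 (0.24 for the lines with probes averaged), Os04g0664400 (-0.61 without wild-type replicate 1, 4.18 without wild-type replicate 2) and, between the lines, Os02g0164900 (0.22 without line 2 replicate 2, -1.01 without line 2 replicate 1) and Os05g0515400 (-0.12 without line 14 replicate 2, 0.75 without line 14 replicate 1). The cause was not tested. A slide block could not be fitted for line 14, which is alone on its slide, and was not run. Restricting the fit to the compared arrays gives no value for both lines. Signal near background limits Os06g0166500, Os06g0355300, Os02g0723400, Os04g0664400 and Os04g0690600.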
